A study of Mus musculus with 2 samples.

Results

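The nuclear-encoded oxidative phosphorylation (OXPHOS) genes of mouse embryonic stem cells (mESCs) were taken from the deposited table by symbol. They comprise every gene whose symbol names a subunit of respiratory complex I (Nduf with a family letter and number, and Ndufab1), complex II (Sdha to Sdhd), complex III (Uqcr genes and Cyc1), complex IV (Cox4 to Cox8) or complex V (Atp5). The rule found 84 of 18888 genes, namely 37 of complex I, 4 of complex II, 9 of complex III, 17 of complex IV and 17 of complex V. Some carry such a symbol although their products are not known as subunits of the complex named, among them Atp5s and Atp5sl, which are assembly or coupling factors, Cox7a2l, a supercomplex assembly factor, and Ndufa4, first assigned to complex I and now known as a partner of complex IV.

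RNA was sequenced from 46C mESCs, a mouse embryonic stem cell line, at passages 21 to 24 on gelatin. The control cells carried an empty PiggyBac transposon vector (PB), and the other cells carried the same vector driving telomeric repeat-containing RNA in a polyadenylated form (PB-TERRA). Each condition was 1 library, so no difference below has a replicate check, no test is given, and library and condition cannot be told apart. Whether each line was a clone or a pool of integrants is not given in the sources used here.

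Oxidative phosphorylation passes electrons from NADH and succinate through complexes I to IV in the inner mitochondrial membrane and uses the proton gradient so formed to drive ATP synthesis by complex V. Most subunits are encoded in the nucleus and imported, while a small catalytic core is encoded by mitochondrial DNA and made on mitochondrial ribosomes. Pluripotent stem cells rely strongly on glycolysis, but naive mESCs also respire.

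Levels are in FPKM (fragments per kilobase of gene and per mapped reads of the library), which are scaled to gene length and can be set side by side between genes. The steps between low FPKM values placed the depth at 24770000 reads in PB and 24840000 reads in PB-TERRA. All 8 pluripotent stem cell markers were expressed, from 27.02 to 1162.5 FPKM in PB and from 34.08 to 1039.92 FPKM in PB-TERRA. The 9 primitive endoderm markers summed to 35.91 FPKM in PB and 44.92 FPKM in PB-TERRA, and each of the 9 was higher in PB-TERRA. Their lowest value was 0.17 FPKM in PB, where 0.01 FPKM is the lowest value listed for any gene. Among all genes that reached 1 FPKM in either library, 50.9% were lower in PB-TERRA. The 7 fibroblast markers summed to 18.78 and 22.85 FPKM, and the 7 markers of 2-cell-like cells to 3.68 and 1.58 FPKM. The part of such cells in the OXPHOS values was not tested, and in bulk RNA fewer cells of a type and less RNA per cell cannot be told apart.

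The OXPHOS genes were abundant in both libraries and differed little between them. Together they held 10830.4 FPKM in PB and 10623.9 FPKM in PB-TERRA, which was 2.177% and 2.192% of all summed FPKM. The highest was Atp5b, the catalytic beta subunit of ATP synthase, with 926.91 FPKM in PB and 949.91 FPKM in PB-TERRA. It was followed by Cox7c, a small subunit of cytochrome c oxidase, with 661.32 and 611.14 FPKM. The median of the 80 members that reached 1 FPKM in either library was 80.74 FPKM in PB and 78.88 FPKM in PB-TERRA, against 11.03 and 10.97 FPKM over all 12263 genes past that filter. The remaining 4 members, Cox4i2, Cox6a2, Cox7b2 and Cox8c, stayed under 1 FPKM in both libraries.

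**Figure D1:**
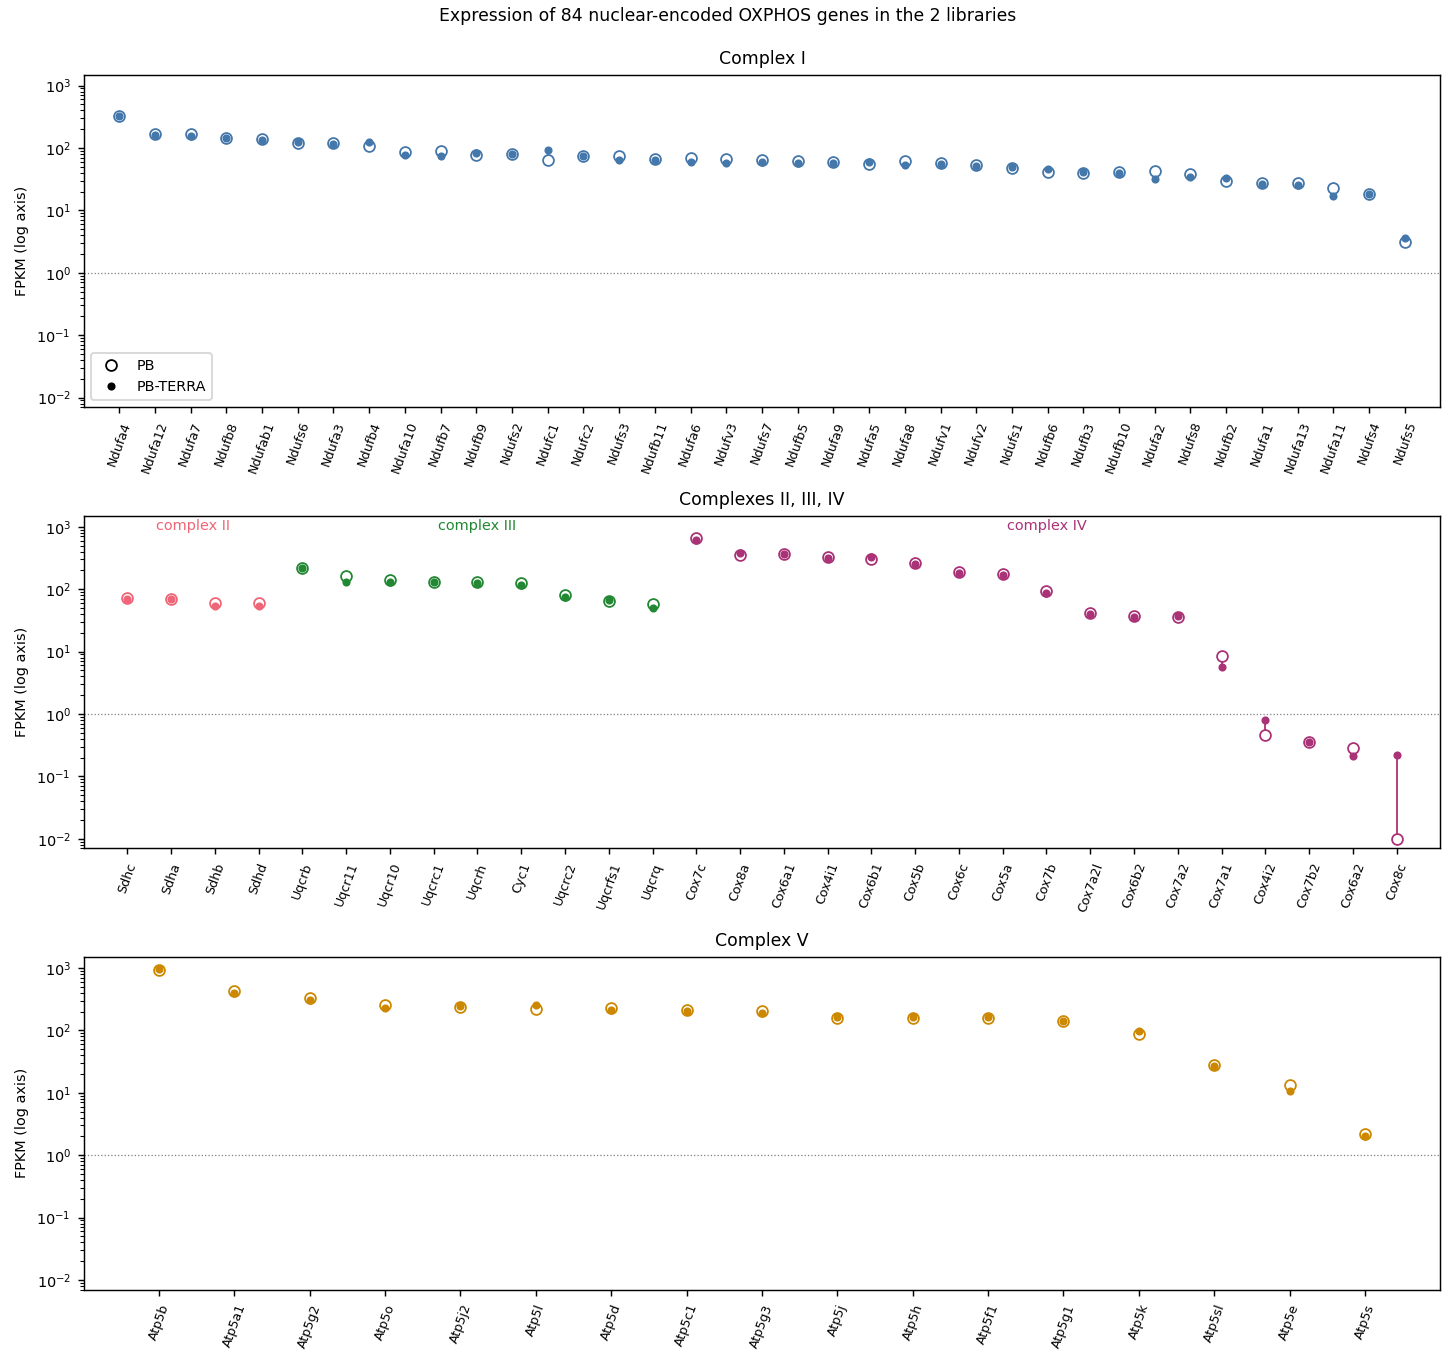
Level of each of the 84 members in FPKM (log axis) in PB (open circles) and PB-TERRA (filled points), with 1 library per condition, grouped by complex and ordered by mean level. The dotted line marks 1 FPKM, and the 4 members under it are isoforms of complex IV; Cox8c in PB lies at 0.01 FPKM, the lowest value the table lists.

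By complex, the median level of the members past the filter was highest in complexes IV and V. The isoforms under the filter are left out of the complex IV median. With them, the middle member of complex IV is Cox7b, at 91.9 FPKM in PB, below the median of complex III. The median level in PB was 63.83 FPKM for complex I, 65.58 FPKM for complex II, 129.37 FPKM for complex III, 185.72 FPKM for the 13 members of complex IV past the filter and 202.91 FPKM for complex V. Summed levels in PB and PB-TERRA were 2847.08 and 2782.5 FPKM for complex I, and 262.8 and 248.48 FPKM for complex II. Complex III summed to 1104.02 and 1044.36 FPKM, complex IV to 2846.34 and 2801.18 FPKM, and complex V to 3770.19 and 3747.42 FPKM. All 5 sums were thus lower in PB-TERRA, by a log2 ratio between -0.08 (complexes II and III) and -0.01 (complex V), but after scaling the libraries to the same FPKM sum those of complexes I, IV and V were higher in PB-TERRA, at 0.00, 0.01 and 0.03, and those of complexes II and III were both at -0.04. With the length trend taken off, complex II was at -0.05 and complex III at -0.02. The most abundant member carried 27.1% of the sum in complex II (Sdhc), 24.6% in complex V (Atp5b), 23.2% in complex IV (Cox7c), 19.7% in complex III (Uqcrb) and 11.6% in complex I (Ndufa4) in PB.

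Differences are given as the log2 ratio of FPKM + 0.1, PB-TERRA over PB, and below 0 means a lower level in PB-TERRA. Of the 80 members past the filter, 54 (67.5%) had a ratio below 0 and 26 above it, with a median of -0.04 and a range of -0.54 to 0.54. Over all 12263 genes past the filter, 50.9% were below 0 and the median was 0.00. This split was not stable to scaling, since it became 41 below and 39 above with both libraries set to the same sum, and 36 below and 42 above once the median ratio of genes of the same length was taken off. The differences were small in size: 5 members were at least 1.2-fold lower (6.25%, against 8.92% of all genes) and 1 was at least 1.2-fold higher (1.25%, against 7.39% of all genes). No member reached a 2-fold difference in either direction, against 0.913% of all genes. With the same sum 3 members were at least 1.2-fold lower and 1 higher, and with the length trend taken off 3 were lower and 2 higher. These counts are small, and nothing is read from them about the members.

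How far counting error alone reaches was read from an exact 95% interval of each ratio, made from reads estimated from FPKM, gene length and depth. This interval compares the 2 libraries and not the conditions, covers counting error only, and assumes that the listed gene length is the one the values were scaled by. It lay below 0 for 24 of the 80 members (30.0%), above 0 for 7 (8.75%) and included 0 for 49. Over all genes past the filter the shares were 17.5% below and 18.2% above. With the length trend taken off, 15 members lay below and 16 above. The read estimates of Ndufv3, Atp5sl, Cox6b2, Atp5j and Atp5f1 are in doubt, and among the other 75 members 23 intervals lay below 0 and 6 above.

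**Figure D2:**
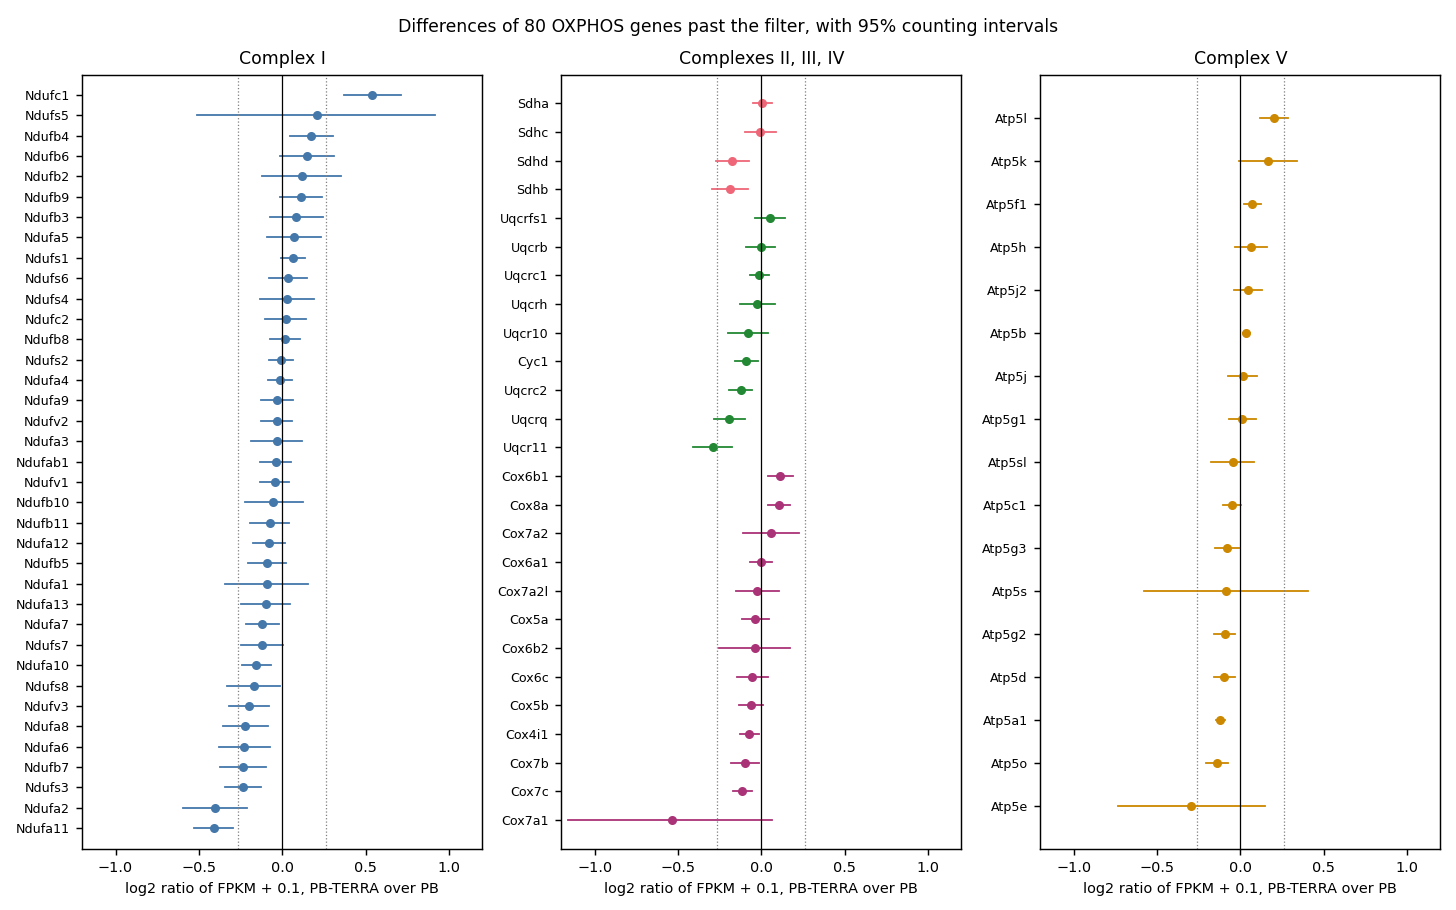
Log2 ratio of FPKM + 0.1, PB-TERRA over PB, of the 80 members past the filter, by complex and in order of the ratio. Points are single values from 1 library per condition, bars are 95% counting intervals, and the dotted lines mark 1.2-fold; of the 6 members past them, Ndufc1 lies to the right and Cox7a1, Ndufa11, Ndufa2, Atp5e and Uqcr11 to the left.

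Gene length moved with the ratio, and OXPHOS genes are short. Their median length was 719 bases (349 to 2859), against 2801 bases over all genes past the filter, and 54 of the 80 lay in the shortest decile of genes (107 to 1054 bases). The median log2 ratio over all genes was -0.06 in that decile and 0.05 in the longest decile (6114 to 26576 bases). For a comparison closer in length and level, 1696 genes had at least 20 FPKM on average and at most 2000 bases, limits that were chosen after the data were seen. This set includes most of the members and was still longer and less abundant, with a median length of 1285 bases and a median of 53.5 FPKM in PB. Of these, 65.0% had a ratio below 0 (OXPHOS 67.5%), 7.37% were at least 1.2-fold lower (OXPHOS 6.25%) and 2.42% at least 1.2-fold higher (OXPHOS 1.25%). Their counting interval lay below 0 for 35.0% (OXPHOS 30.0%) and above 0 for 13.7% (OXPHOS 8.75%), and their median ratio was -0.05 (OXPHOS -0.04). The shares and the median of the members thus lay nearer to this set than to all genes for the direction of the ratio. The part of gene length in the ratios of single members was not tested.

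**Figure D3:**
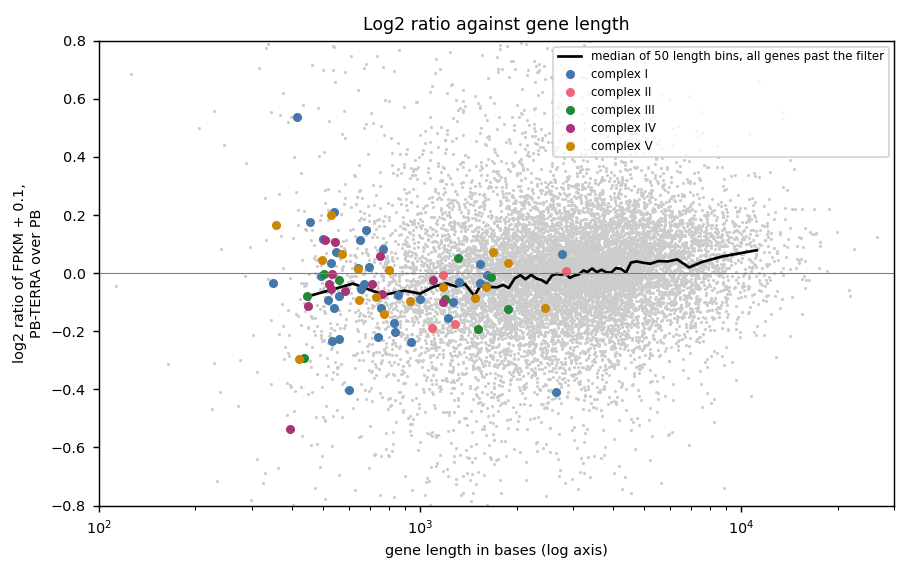
Log2 ratio of FPKM + 0.1, PB-TERRA over PB, against gene length in bases (log axis) for all genes past the filter (grey) and the 80 members (coloured by complex), with the median of 50 length bins as a black line. The line runs from below 0 among short genes to above 0 among long ones, most members lie at its short end, and 202 genes fall outside the drawn range of -0.8 to 0.8.

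The genes of other large housekeeping complexes are set beside them here. Of 77 mitochondrial ribosomal protein genes, 55 were below 0 and 22 above, with a median ratio of -0.05, which was 0.01 with the length trend taken off. Of 38 proteasome subunit genes past the filter, 25 were below and 13 above, with a median of -0.03 and of 0.02 with the length trend taken off. Cytosolic ribosomal protein genes stood lowest, with 69 of 81 below 0 and a median of -0.11. With the length trend taken off their median was -0.04, where the OXPHOS median was 0.00. Counting intervals lay below 0 for 71.6% of them (OXPHOS 30.0%, all genes 17.5%). Their median level in PB was 1012.99 FPKM (OXPHOS 80.74 FPKM), and more reads narrow the interval. These shares therefore do not compare the size of the differences. No test of these differences between lists was made, because genes are not replicates.

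**Figure D4:**
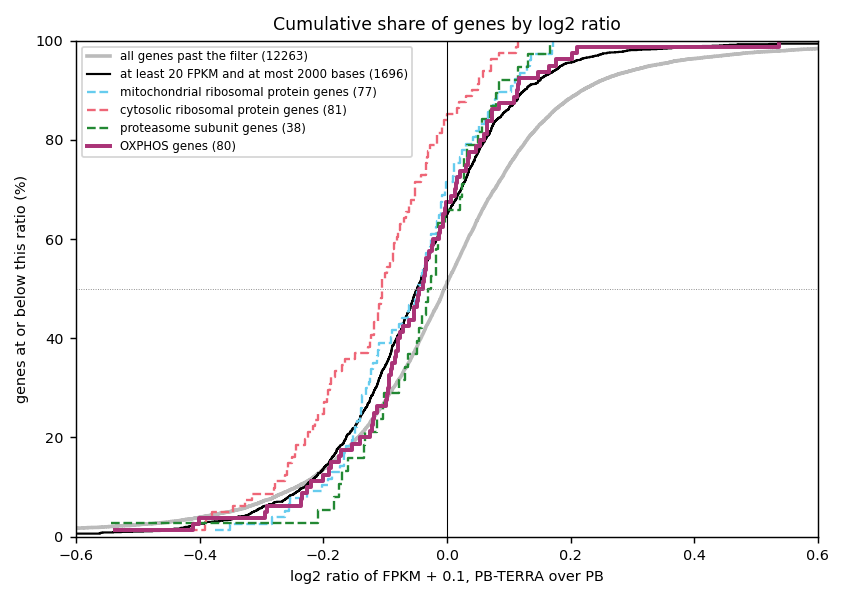
Cumulative share of genes (percent) by log2 ratio of FPKM + 0.1, PB-TERRA over PB, for OXPHOS genes (80), all genes past the filter (12263), genes of at least 20 FPKM and at most 2000 bases (1696), and mitochondrial ribosomal (77), cytosolic ribosomal (81) and proteasome (38) genes. The OXPHOS curve follows that of abundant short genes and the cytosolic ribosomal curve lies furthest to the left; 401 genes fall outside the drawn range of -0.6 to 0.6, and both scaling to the same sum and taking off the length trend move the OXPHOS median to about 0.

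Complex I, NADH dehydrogenase, is the entry point of electrons from NADH. Of its 37 members 24 were below 0 and 13 above, with a median ratio of -0.04, which was 0.00 with the same sum and with the length trend taken off. The most abundant was Ndufa4, at 329.66 FPKM in PB and 327.07 in PB-TERRA. Without it, the sum of the complex had a log2 ratio of -0.04. The accessory subunit genes Ndufa12, at 170.23 and 161.13 FPKM, and Ndufa7, at 168.51 and 155.22 FPKM, came next. The lowest was Ndufs5 at 3.08 and 3.58 FPKM.

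Ndufc1, which encodes a small accessory subunit of the membrane arm, had the highest ratio of the 80 members past the filter. It stood at 63.83 FPKM in PB and 92.71 FPKM in PB-TERRA, a log2 ratio of 0.54 with a counting interval of 0.37 to 0.71, on an estimated 474 and 691 reads. Its partner gene Ndufc2 was at 73.72 and 74.83 FPKM. The only other member of complex I with a counting interval above 0 was Ndufb4, at 108.71 and 122.8 FPKM (log2 ratio 0.18), which made 5.41% of the 37, against 18.2% of all genes. The interval lay below 0 for 10 of the 37 (27.0%, against 17.5% of all genes and 35.0% of abundant short genes).

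At the other end stood Ndufa11, a membrane-arm accessory subunit, at 22.88 FPKM in PB and 17.19 FPKM in PB-TERRA. Its log2 ratio was -0.41, with a counting interval of -0.53 to -0.30. The table lists it at 2661 bases, whereas its exons in the GENCODE M21 annotation cover 1092 bases, 70 of which overlap Vmac on the opposite strand, and which transcripts its value covers is not known here. Vmac itself was at 6.2 and 6.24 FPKM. Ndufa2, an accessory subunit of the NADH-oxidising arm, was at 42.21 and 31.93 FPKM, a log2 ratio of -0.40 with an interval of -0.60 to -0.21. Other genes of that arm had ratios closer to 0. The flavoprotein genes Ndufv1, Ndufv2 and Ndufv3 were at 57.97 and 56.17 FPKM, at 52.46 and 51.26 FPKM and at 67.1 and 58.36 FPKM, with log2 ratios of -0.05, -0.03 and -0.20, and the iron-sulfur subunit gene Ndufs1 was at 47.93 and 50.15 FPKM.

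The low value of Ndufs5, a subunit on the intermembrane-space side, went with a near copy of its coding sequence elsewhere. BC002163, annotated as a processed pseudogene at chr16:42955631-42955949 on the plus strand (GENCODE M21, GRCm38), was at 46.13 FPKM in PB and 49.96 FPKM in PB-TERRA. The gene Ndufs5 lies at chr4:123712710-123718202 on the minus strand. Over 319 aligned coding bases the copy differs from Ndufs5 at 2 bases, and the longest identical run is 214 bases. The first 150 coding bases are shown because both differences fall in them, in capitals, and reads outside them cannot be assigned by sequence to one or the other within the coding part.
Ndufs5: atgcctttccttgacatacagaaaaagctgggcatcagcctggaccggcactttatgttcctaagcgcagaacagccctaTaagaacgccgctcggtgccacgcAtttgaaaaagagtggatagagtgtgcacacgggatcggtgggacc
BC002163: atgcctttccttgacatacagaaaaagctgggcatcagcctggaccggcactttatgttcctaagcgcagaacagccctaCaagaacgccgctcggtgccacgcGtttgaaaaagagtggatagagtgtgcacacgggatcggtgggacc
Ndufs5 held 6.9% of the estimated reads of its KEGG orthology entry in PB and 7.3% in PB-TERRA. Summed over the entry, the log2 ratio was 0.11 with a counting interval of -0.07 to 0.29, so the level of Ndufs5 as listed is uncertain while no difference between the libraries was detectable at this depth.

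Complex II, succinate dehydrogenase, is made of 4 nuclear-encoded subunits and is also an enzyme of the tricarboxylic acid (TCA) cycle. The 4 genes stood within a narrow band, between 60.53 and 71.1 FPKM in PB and between 53.4 and 70.8 FPKM in PB-TERRA. Sdha, the flavoprotein that oxidises succinate, was at 70.35 and 70.68 FPKM, and Sdhc, a membrane anchor, at 71.1 and 70.8 FPKM. The other two were lower in PB-TERRA, with counting intervals below 0 (2 of 4 genes, against 17.5% of all genes and 35.0% of abundant short genes). Sdhb, the iron-sulfur subunit, was at 60.82 and 53.4 FPKM, a log2 ratio of -0.19 with an interval of -0.30 to -0.08. Sdhd, the second anchor, was at 60.53 and 53.6 FPKM, a log2 ratio of -0.18 with an interval of -0.27 to -0.08.

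Complex III, the cytochrome bc1 complex, had 8 of 9 members below 0 and a median ratio of -0.08, which was -0.04 with the same sum and 0.00 with the length trend taken off. Uqcrb, a small subunit, was the most abundant at 217.12 FPKM in PB and 216.59 FPKM in PB-TERRA. Of the members that carry redox centres, Uqcrfs1, the Rieske iron-sulfur protein, was at 64.63 and 67.03 FPKM and Cyc1, cytochrome c1, at 123.45 and 116.07 FPKM. The core proteins Uqcrc1 and Uqcrc2 were at 129.66 and 128.49 FPKM and at 81.19 and 74.48 FPKM. Of the small subunits, Uqcr10 was at 139.92 and 132.37 FPKM, and Uqcr11 had the lowest ratio of the complex. It stood at 161.46 FPKM in PB and 131.92 FPKM in PB-TERRA, a log2 ratio of -0.29 with a counting interval of -0.41 to -0.17. The intervals of Uqcrq, Uqcrc2 and Cyc1 also lay below 0, which made 4 of 9 (44.4%, against 17.5% of all genes and 35.0% of abundant short genes). With the length trend taken off, the log2 ratio of Cyc1 was -0.05 in place of -0.09. The interval of the single member above 0, Uqcrfs1, ran from -0.04 to 0.14.

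Complex IV, cytochrome c oxidase, passes electrons to oxygen, and its nuclear-encoded subunits surround a core made in the mitochondrion. Of the 13 members past the filter 10 were below 0 and 3 above, with a median of -0.04, which was 0.00 with the same sum and 0.03 with the length trend taken off. Cox7c, the most abundant, had a log2 ratio of -0.11 with an interval of -0.17 to -0.06, but of -0.03 with the length trend taken off. Without it the sum of the complex differed by a log2 ratio of 0.00. Cox8a was at 350.39 FPKM in PB and 377.57 FPKM in PB-TERRA, and Cox6a1 at 360.04 and 359.64 FPKM. The interval lay above 0 for Cox8a (0.04 to 0.17) and Cox6b1 (0.04 to 0.19). These made 15.4% of the 13, against 18.2% of all genes and 13.7% of abundant short genes. The interval lay below 0 for 3, Cox7c, Cox4i1 and Cox7b (23.1%, against 17.5% and 35.0%). With the length trend taken off, the log2 ratio of Cox4i1 was 0.00 in place of -0.07, and that of Cox7b -0.06 in place of -0.10. Moved by the same trend, the 3 intervals included 0. Cox7a2l, whose product joins complexes III and IV in supercomplexes, was at 40.82 and 40.13 FPKM.

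Several complex IV subunits exist as a general isoform and an isoform known from heart, muscle, lung or testis. In these cells the general isoform was the higher of each pair in both libraries. Cox4i1 was at 332.64 and 316.67 FPKM, and its lung isoform Cox4i2, known to respond to low oxygen, at 0.46 and 0.79 FPKM. Cox6a1 stood against 0.29 and 0.21 FPKM for the heart and muscle isoform Cox6a2. Cox7b, at 91.9 and 85.81 FPKM, and Cox8a stood against the testis isoforms Cox7b2, at 0.35 FPKM in both libraries, and Cox8c, at 0.01 and 0.22 FPKM. Those 4 isoforms rested on at most 12 estimated reads in a library, so a difference between the libraries was not detectable at this depth.

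The other pairs were not so one-sided. Cox6b2, a testis isoform, was at 37.26 FPKM in PB and 36.31 FPKM in PB-TERRA, which was 11.0% and 10.0% of the summed level with Cox6b1, at 301.75 and 326.66 FPKM. Cox7a1, the heart and muscle isoform, was at 8.4 and 5.76 FPKM, 19.2% and 13.5% of the summed level with Cox7a2, at 35.39 and 36.89 FPKM. Its log2 ratio of -0.54 was the lowest of all members, but rested on an estimated 58 and 40 reads, with an interval of -1.16 to 0.07. The 6 skeletal and cardiac muscle markers summed to 10.18 FPKM in PB and 6.6 FPKM in PB-TERRA, most of it Actc1, cardiac alpha actin, at 8.72 and 5.12 FPKM. Of the other markers, each was under 1 FPKM in both libraries, the highest being Myh6 at 0.87 and 0.82 FPKM, and Myod1 was at 0.02 FPKM in both. The part of muscle-like cells in the Cox7a1 value was not tested. Cox8b was not analysed here.

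**Figure D5:**
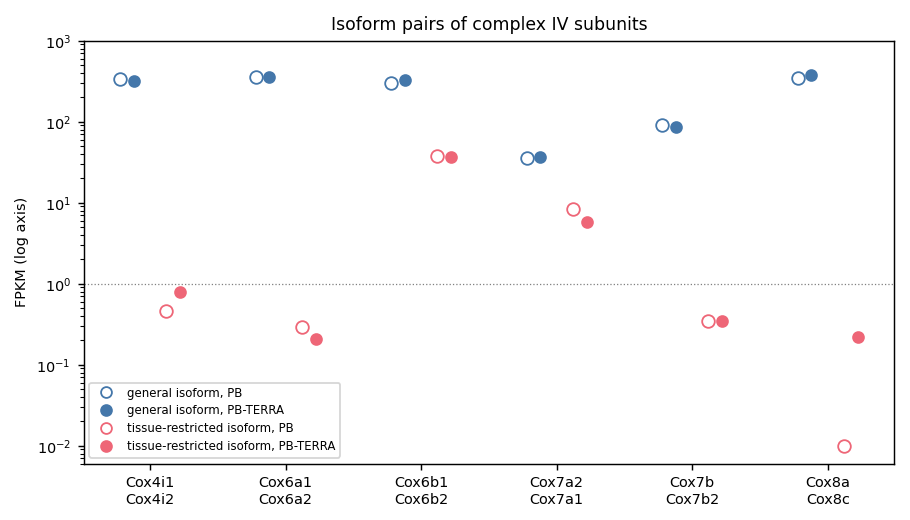
Levels in FPKM (log axis) of 6 pairs of complex IV isoforms, the general isoform in blue and the tissue-restricted one in red, in PB (open) and PB-TERRA (filled), with 1 library per condition. The general isoform is higher in each pair, and of the restricted isoforms Cox6b2 and Cox7a1 lie above the dotted line at 1 FPKM.

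Complex V, ATP synthase, consists of a catalytic head and a membrane rotor. Of its 17 members 9 were below 0 and 8 above, with a median ratio of -0.05, which was -0.01 with the same sum and 0.00 with the length trend taken off. The interval lay below 0 for 5 of the 17 (29.4%, against 17.5% of all genes and 35.0% of abundant short genes). It lay above 0 for 3 (17.6%, against 18.2% and 13.7%), among them Atp5f1, whose read estimate is in doubt. Over all 80 members, taking off the length trend changed 24 intervals below 0 and 7 above to 15 and 16. The alpha and beta subunits form the catalytic head in equal number, but their genes had ratios of opposite sign. Atp5a1, the alpha subunit, was at 426.93 FPKM in PB and 392.59 FPKM in PB-TERRA, a log2 ratio of -0.12 with an interval of -0.15 to -0.09. Atp5b had a log2 ratio of 0.04 with an interval of 0.02 to 0.06. The signs stayed opposite with the length trend taken off, at -0.09 and 0.09. These 2 genes had the most reads of all members, an estimated 24629 and 22712 for Atp5a1 and 40524 and 41647 for Atp5b, and hence the narrowest intervals.

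The highest ratio of complex V was that of Atp5l, subunit g of the membrane part, at 218.51 FPKM in PB and 251.29 FPKM in PB-TERRA (log2 ratio 0.20, interval 0.12 to 0.28). Atp5k, subunit e, which lies beside it in the membrane, was at 85.97 and 96.35 FPKM, with an interval of -0.01 to 0.34. The lowest was Atp5e, the epsilon subunit of the central stalk, at 13.11 and 10.67 FPKM. Its log2 ratio of -0.29 rested on an estimated 99 and 81 reads, with an interval of -0.74 to 0.14. Atp5e was also far below its stalk partners, Atp5c1 (gamma) at 211.73 and 204.61 FPKM and Atp5d (delta) at 224.58 and 210.17 FPKM.

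The c subunit, of which the rotor ring is built, is encoded by 3 genes whose mature protein is the same. Atp5g2 was the highest, at 327.08 FPKM in PB and 306.43 FPKM in PB-TERRA, followed by Atp5g3 at 202.91 and 191.71 FPKM and Atp5g1 at 142.12 and 143.34 FPKM. They lie at chr15:102662864-102672352, chr2:73908447-73911326 and chr11:96068852-96075670, all on the minus strand (GENCODE M21, GRCm38). The last 225 coding bases, 75 codons that give the same amino acids in all 3 genes, are shown because they bear on whether reads of the 3 genes can be told from each other. Capitals mark the 57 positions at which the 3 differ.
Atp5g1: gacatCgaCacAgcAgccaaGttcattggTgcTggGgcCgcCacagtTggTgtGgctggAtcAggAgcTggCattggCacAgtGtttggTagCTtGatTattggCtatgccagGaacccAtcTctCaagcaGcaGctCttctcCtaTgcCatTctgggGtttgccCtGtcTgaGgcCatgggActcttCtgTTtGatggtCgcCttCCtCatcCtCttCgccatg
Atp5g2: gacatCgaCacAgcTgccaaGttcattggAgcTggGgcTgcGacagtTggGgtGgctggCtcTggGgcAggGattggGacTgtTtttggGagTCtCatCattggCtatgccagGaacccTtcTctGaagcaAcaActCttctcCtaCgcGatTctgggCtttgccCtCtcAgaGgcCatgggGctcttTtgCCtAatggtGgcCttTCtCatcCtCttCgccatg
Atp5g3: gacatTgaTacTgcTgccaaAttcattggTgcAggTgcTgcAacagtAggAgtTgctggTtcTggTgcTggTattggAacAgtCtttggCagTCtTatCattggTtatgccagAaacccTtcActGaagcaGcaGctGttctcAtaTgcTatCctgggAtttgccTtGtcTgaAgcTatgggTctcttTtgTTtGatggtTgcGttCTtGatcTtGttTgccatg
Atp5g1 and Atp5g2 differ at 34 of the 225 bases, Atp5g1 and Atp5g3 at 45, and Atp5g2 and Atp5g3 at 48, and the longest run shared by any pair is 20 bases. Within this stretch, then, no run of 50 bases is common to any pair. Over whole transcripts, Atp5g2 shared 36.7% of its stretches of 50 bases with Gm10175, and Atp5g1 6.9% with Gm10039. Atp5g3 shared none with another gene. The table also holds 2 gene models predicted by the authors under the same KEGG orthology entry, BGI_novel_G000337 at 52.73 and 34.13 FPKM and BGI_novel_G000692 at 76.59 and 51.9 FPKM. Both models were lower in PB-TERRA, with log2 ratios of -0.63 and -0.56 and intervals below 0. Their positions were not used here, and whether they take reads of the Atp5g genes was not tested. Summed over all 5, the log2 ratio of estimated reads was -0.13, with an interval of -0.17 to -0.10, against -0.09 for Atp5g2, -0.08 for Atp5g3 and 0.01 for Atp5g1 alone. With the length trend taken off, these single ratios were -0.06, -0.01 and 0.09.

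Sequence shared with other genes was limited for most members. Of the 83 members found in GENCODE M21 (Atp5sl was not), 40 had no stretch of 50 bases that also occurs in a transcript of another gene, and none shared 50% or more of its stretches. The 4 that shared the most were Atp5g2 (38.3%), Uqcrb (25.4%), Cox7c (22.1%) and Ndufs5 (21.7%), and leaving them out left the median ratio at -0.04. Exons of 29 members overlapped those of another gene, 26 of them on the opposite strand, most in Ndufb6, where Smim27 covers 39.0% of exon bases, and Ndufa13, where Tssk6 covers 30.0%. How strand was used in counting is not given in the sources used here, so reads of these pairs may be mixed. In all, 20 genes outside the symbol rule carried a KEGG orthology entry of a member as their only one. Of these, 13 were past the filter, and with them, and without Atp5sl, which carries several entries, the median ratio over 92 genes was -0.04.

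Promoters of OXPHOS genes are known for sites of the factors NRF1, of ETS family factors such as GABPA, and of YY1. The letters GCATGCGC (NRF1), CCGGAAG (ETS) and AAGATGGCG (YY1) were searched on both strands from 250 bases before to 50 bases after the start of each gene in RefSeq (GRCm38.p6), where 69 of the 84 members have a promoter. The NRF1 letters were found in 10 members (14.5%), against 3.05% of 27025 genes. The ETS letters were found in 16 members (23.2%), against 9.93% of genes, and the YY1 letters in 8 (11.6%), against 1.64% of genes. At least 1 of the 3 was found in 28 members, and 2 or more in 6. The 27025 genes were not limited to genes expressed in these cells, and no group of like genes was set beside the members. An excess particular to OXPHOS genes can therefore not be read from these shares. The promoters shown belong to members described above and were chosen after the matches were seen, to show each kind of match, in capitals.
Sdhb, NRF1 and ETS, chr4:140961171-140961320, plus strand: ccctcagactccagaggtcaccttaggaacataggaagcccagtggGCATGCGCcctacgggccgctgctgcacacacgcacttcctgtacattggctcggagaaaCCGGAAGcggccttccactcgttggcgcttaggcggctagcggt
Uqcr11, ETS and NRF1, chr10:80406772-80406921, minus strand: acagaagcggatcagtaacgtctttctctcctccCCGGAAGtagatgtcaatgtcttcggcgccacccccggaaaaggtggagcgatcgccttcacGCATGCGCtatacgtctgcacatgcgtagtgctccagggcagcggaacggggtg
Ndufc1, YY1, chr3:51408906-51409055, minus strand: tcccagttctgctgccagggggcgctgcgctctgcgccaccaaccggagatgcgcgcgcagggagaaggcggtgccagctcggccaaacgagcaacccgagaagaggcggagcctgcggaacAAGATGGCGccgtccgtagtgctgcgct
Ndufa11, NRF1 on both strands with overlap, chr17:56717662-56717811, plus strand: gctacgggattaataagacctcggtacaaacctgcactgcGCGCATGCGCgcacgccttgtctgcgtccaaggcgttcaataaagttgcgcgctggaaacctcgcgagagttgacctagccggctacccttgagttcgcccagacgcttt
The 5 members with both NRF1 and ETS letters had log2 ratios on either side of 0, at -0.29 for Uqcr11, -0.19 for Sdhb, 0.00 for Cox6a1, 0.16 for Atp5k and 0.20 for Atp5l. Ndufc1, with YY1 letters, had one of 0.54. The median log2 ratio was -0.14 over the 10 members with NRF1 letters (-0.41 to 0.20) and -0.04 over the 58 without them past the filter. It was -0.01 over the 16 with ETS letters and -0.04 without, and 0.02 over the 8 with YY1 letters and -0.05 without. The ranges with and without each motif overlapped, and a match is a description of letters, not a site. Of the factors themselves, Nrf1 was at 27.58 FPKM in PB and 24.69 FPKM in PB-TERRA (log2 ratio -0.16, counting interval -0.26 to -0.06). Gabpa was at 37.92 and 41.69 FPKM (0.14, interval 0.08 to 0.20). Yy1 was at 48.55 and 50.27 FPKM (0.05), with an interval of -0.03 to 0.13 that included 0. Whether these levels bear on the ratios of the members was not tested. The motif medians were not corrected for gene length or library sum.

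Genes that act on the complexes without being part of them were described from lists of known factors. Of 52 assembly factors 50 were in the table and 48 past the filter, of which 29 were below 0 and 19 above, with a median ratio of -0.04, which was 0.00 with the same sum. The lowest ratios were those of Nubpl, which inserts iron-sulfur clusters into complex I, at 11.28 FPKM in PB and 8.02 FPKM in PB-TERRA (log2 ratio -0.49), and Cox18, which inserts a core subunit of complex IV, at 18.88 and 14.46 FPKM (log2 ratio -0.38). Ndufaf3, a complex I assembly factor, was at 8.21 and 6.52 FPKM. Bcs1l, which places the Rieske protein in complex III, was at 9.56 and 7.87 FPKM, and Cox19, a complex IV assembly factor, at 16.97 and 14.03 FPKM. These 5 were the assembly factors at least 1.2-fold lower (10.4% of the list, against 8.92% of all genes past the filter), each with a counting interval below 0. Over the whole list the interval lay below 0 for 12.5% and above 0 for 6.25%, against 17.5% and 18.2% of all genes. Ndufaf1, a complex I assembly factor, was the 1 gene at least 1.2-fold higher (2.08%, against 7.39% of all genes), at 10.47 and 12.63 FPKM (log2 ratio 0.27, interval 0.06 to 0.48). The intervals of Sco1 and Coa5, both complex IV assembly factors, also lay above 0, at 7.56 and 8.59 FPKM and at 35.75 and 38.84 FPKM.

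Of 15 genes of electron carriers and coenzyme Q synthesis, 11 were below 0 and 4 above, with a median ratio of -0.06, which was -0.02 with the same sum, and the split was 8 below and 7 above with the length trend taken off. Cycs, somatic cytochrome c, which carries electrons from complex III to IV, had the highest ratio of the list, at 44.09 FPKM in PB and 49.8 FPKM in PB-TERRA (log2 ratio 0.18 with an interval of 0.11 to 0.24). The testis form Cyct had the lowest, at 1.24 and 1.09 FPKM. Its interval ran from -1.29 to 0.91, and a difference was not detectable at this depth.

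Of 22 factors of mitochondrial biogenesis and mitochondrial DNA, 12 were below 0 and 9 above, with a median ratio of -0.02, which was 0.02 with the same sum, -0.03 with the length trend taken off and -0.04 over genes of at least 5 FPKM on average. Polg2, the accessory subunit of the mitochondrial DNA polymerase, was at 4.24 and 3.07 FPKM, and Tefm, the mitochondrial transcription elongation factor, at 11.88 and 9.69 FPKM. Both were at least 1.2-fold lower (9.09% of the list, against 8.92% of all genes), with intervals below 0. The intervals of Polg, Peo1, Nrf1, Polrmt and Pprc1 also lay below 0, making 7 of 22 (31.8%, against 17.5% of all genes), and that of Gabpa lay above 0 (4.55%, against 18.2%). Ppargc1b, a transcriptional coactivator of mitochondrial genes, and Mterf1a, of the mitochondrial termination factor family, were at least 1.2-fold higher (9.09%, against 7.39% of all genes), at 1.28 and 1.62 FPKM and at 3.54 and 4.38 FPKM, with intervals that included 0.

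Of 14 TCA cycle enzymes 11 were below 0 and 3 above, with a median ratio of -0.05, which was -0.01 with the same sum, and the split was 9 below and 5 above with the length trend taken off. Idh2, the NADP-dependent mitochondrial isocitrate dehydrogenase, was the only one past 1.2-fold (7.14% of the list, against 8.92% of all genes lower), at 32.46 FPKM in PB and 26.11 FPKM in PB-TERRA (log2 ratio -0.31, counting interval from -0.43 to -0.20). The interval lay below 0 for 5 of the 14 (35.7%, against 17.5% of all genes and 35.0% of abundant short genes). It lay above 0 for none (against 18.2% and 13.7%). Idh3g and Fh1 are among those 5, each with a log2 ratio of -0.11. With the length trend taken off, their ratios were -0.03 and -0.06. The highest ratio was that of citrate synthase, Cs, at 120.7 and 123.45 FPKM. The 13 OXPHOS genes encoded by mitochondrial DNA were not analysed here.

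Among the lists of related genes, the only 2-fold difference lay beside the symbol rule of the OXPHOS genes. Ndufa4l2, a paralog of Ndufa4 known to be induced by low oxygen, was at 10.88 FPKM in PB and 4.33 FPKM in PB-TERRA, a log2 ratio of -1.31 with an interval of -1.69 to -0.98. AA467197, of the same KEGG orthology entry and named after its values were seen, was at 1.52 and 0.79 FPKM, with an interval of -2.14 to 0.18. Ndufa4 itself had a log2 ratio of -0.01, with an interval of -0.08 to 0.06. Of the 7 related genes in that list, 6 were below 0 (85.7%, against 50.9% of all genes and 65.0% of abundant short genes). Atpif1, the inhibitor of ATP synthase, was the one above, at 106.61 and 110.96 FPKM. The median ratio of the list was -0.10, and -0.06 with the same sum. With the length trend taken off it was -0.05, with 5 below and 2 above.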

How the data were processed

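RNA was prepared with a TruSeq kit and sequenced on a BGISEQ-500 by the authors, 1 library per condition. The submitters' processing notes name HISAT, Cufflinks and mm9, without roles. The authors deposited 1 table of 18888 genes with a length and an expression value per library. The header names no unit. The deposited values were taken to be FPKM (the authors' scaling by gene length and by mapped reads), because low values step in whole reads once 114 bases are taken off the length (82.8% of 424 low values in PB and 87.3% of 455 in PB-TERRA within 0.2 reads of a whole number). The deposited log2 fold change, p-value, adjusted p-value and up or down call of the authors' own test on both libraries gave no value printed here, but a comparison of the p-values with the estimated reads left the estimates of 5 members in doubt.

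Libraries were compared as the log2 ratio of FPKM + 0.1, which understates the change of low genes, over genes that reached 1 FPKM in either library, using Python 3.11.15, numpy 2.4.6, pandas 2.3.3 and scipy 1.17.1. Reads per gene were estimated from FPKM, length and depth, and exact (Clopper-Pearson) 95% intervals of their ratio were computed. The length trend was the median ratio in 50 bins of gene length. The estimation was tested on simulated reads made with the listed lengths and a fixed offset. Such a test cannot show whether a listed length is wrong or whether genes share reads. The genome given was GRCm38 and not the submitters' build, so coordinates are those of the annotation and the RefSeq promoter table only. Members and lists were chosen with earlier results of these data known. Genes named are the 3 highest and the extreme ratios of each complex, every member past 1.2-fold, the complex IV isoforms, Atp5g1 to Atp5g3, Cox7a2l, Ndufa4, Sdha to Sdhd, and in related lists the extreme ratios and every gene past 1.2-fold. Other members were named for their role in a complex, and those outside the rule after their values were seen. Alternatives were other pseudocounts, filters and scalings, the length trend, and other memberships.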

Additional observations from a re-analysis of the deposited data

How the results depend on the processing

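No paired analysis was possible because each condition was 1 library, and for the same reason no replicate could be left out. Other pseudocounts (0.01 and 1) and a mean of at least 5 FPKM moved none of the counts or medians beyond the tolerances, nor did centring on the median of all genes, which was also run on the sums. No member past 1.2-fold changed sign, while ratios near 0 did, as Cox6a1 (0.0028) and Uqcrb (0.0009) with centring. Without a filter, 3 members were at least 1.2-fold higher and 1 was past 2-fold, since the 4 isoforms under 1 FPKM enter. With both libraries at the same sum, a shift of 0.038 on the log2 scale that the pseudocount makes smaller for low genes, 3 members were at least 1.2-fold lower, and the log2 ratios of the sums were 0.0049 for complex I, -0.0429 for II, -0.0422 for III, 0.0149 for IV, 0.0292 for V and 0.0102 for all members. With the length trend taken off, 42 members were higher, 3 were at least 1.2-fold lower and 2 at least 1.2-fold higher. The sums were then 0.0213 for complex I, -0.0503 for II, -0.0188 for III, 0.0386 for IV, 0.0457 for V and 0.0287 for all members, and 15 counting intervals lay below 0 and 16 above. Without the highest member the sum was 0.0033 for complex IV and -0.0234 for complex V.

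The medians of the OXPHOS genes, of each complex and of the related lists stayed within 0.0968 of the reported value in 81 of 81 recomputations, a tolerance wider than all but 1 of these medians (-0.0974, related genes outside the rule), so it says little about their sign. Of 175 recomputed ratios of single members 166 stayed within their counting interval. Some alternatives were added after seeing the data: reads at 0.5 of the estimate (18 intervals below 0 and 5 above), leaving out Atp5s, Atp5sl and Cox7a2l (median -0.0387), leaving out members with shared sequence (-0.0421) leaving out the members with doubtful read estimates (23 and 6), and the 2 other settings for the counting intervals. Reads were estimated from FPKM, and 1 library per condition limits every statement to these libraries.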
